A study of Mus musculus with 12 samples.

Results

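Transcripts of 10 target genes of the tumour suppressor p53 were followed in mouse bone marrow progenitors that carried the leukemia rearrangement inv(3), the splicing-factor mutation Sf3b1 K700E, both or neither. The genes were chosen by name (Zmat3, Trp53inp1, Sesn1, Pmaip1, Cdkn1a, Mdm2, Ccng1, Bbc3, Bax and Phlda3), and all 10 were found among the 24411 genes of the tables and passed the low-count filter that left 13755 for testing. RNA came from lineage-negative, cKit-positive marrow cells, a gate for stem and progenitor cells, in 12 libraries with 3 per genotype. Donor cells of strain C57BL/6, marked by CD45.2, carried Mx1-Cre alone (control), Mx1-Cre with inv(3), Mx1-Cre with heterozygous Sf3b1 K700E, or Mx1-Cre with both alleles (the double group). All 4 groups, controls included, thus carried the Mx1-Cre transgene, whose promoter answers to interferon in blood cells and in other tissues. All were transplanted with wild-type CD45.1 support marrow into lethally irradiated CD45.1 recipients, and all recipients received 3 doses of pIpC at 20 mg/kg from 4 weeks after transplantation. Cells were taken 6 months after pIpC, and no source used here says whether CD45.2 cells were separated from support and recipient cells. The labels do not say whether replicates are separate mice, so p-values measure only the spread between these samples. No source used here gives the ages of the animals.

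The protein p53 is a transcription factor that is kept low by constant degradation and accumulates after DNA damage, nucleolar stress and other insults. It binds DNA as a tetramer through paired copies of a short half-site and switches on genes for cell-cycle arrest, for apoptosis, for metabolic protection and for its own restraint. In blood stem and progenitor cells it limits self-renewal and sets how readily damaged cells die.

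The promoter stretches that match the p53 half-site are shown first. RefSeq promoter windows (GRCm38.p6, 250 bases before to 50 after each start) were matched for 7 of the 10 members, with 11 windows in all. Zmat3, Trp53inp1 and Pmaip1 were not matched. The p53 half-site, a palindromic run of 3 purines, C, 2 bases that are each A or T, G and 3 pyrimidines, was searched on both strands. It was in 5 of the 11 windows, for 5 of the 7 genes, and in 8.36% of all 32851 windows. Counted by gene, 9.55% of the 27025 genes of the table held it in any window. The stretches with a match are shown 5′ to 3′ on the strand of the gene, half-sites in capitals.
Cdkn1a: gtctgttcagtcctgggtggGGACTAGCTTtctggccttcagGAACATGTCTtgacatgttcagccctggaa
Ccng1: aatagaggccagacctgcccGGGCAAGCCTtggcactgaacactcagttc
Mdm2: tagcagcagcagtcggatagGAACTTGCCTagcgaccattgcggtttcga
Sesn1: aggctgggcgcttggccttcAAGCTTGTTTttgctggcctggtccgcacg
Bax: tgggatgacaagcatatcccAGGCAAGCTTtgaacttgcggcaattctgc
The Cdkn1a stretch (chr17:29090886-29090957, plus strand) lies before the upstream of its 2 listed starts and holds 2 half-sites, 73 and 51 bases before that start. Of all windows, 0.359% held 2 or more. Its second half-site is followed directly by tgacatgttc, which misses the pattern at 1 position, so that a half-site and a near-match stand side by side. The window at the downstream start of Cdkn1a had no match. The Ccng1 stretch (chr11:40755442-40755491, minus strand), the Mdm2 stretch (chr10:117710915-117710964, minus strand) and the Bax stretch (chr7:45467070-45467119, minus strand) each held 1 half-site, 185, 186 and 201 bases before the start. That of Sesn1 (chr10:41887246-41887295, plus strand) stood 173 bases before the downstream of its 2 starts. No window of Phlda3 or of the 3 starts of Bbc3 held these letters. The 10 bases after the first Cdkn1a half-site missed the pattern at 7 positions. Those after the half-sites of Ccng1, Mdm2, Sesn1 and Bax missed it at 6, 5, 3 and 6. Spaced pairs and sequence outside the windows were not searched. A match is a description of the sequence, and binding was not measured in these libraries.

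Levels are compared between genes in TPM, the authors' length-corrected transcript share. Bax was the most abundant member, with 82.2 to 105 TPM over the 12 libraries, followed by Ccng1 at 42.5 to 59.9. Mdm2 at 33.8 to 39.5 and Sesn1 at 24.4 to 51.5 TPM came next, and their ranges overlap. Trp53inp1 stood at 7.11 to 19.0, Cdkn1a at 4.26 to 10.1 and Pmaip1 at 2.79 to 11.6 TPM, with Pmaip1 and Cdkn1a overlapping. Bbc3 had 1.29 to 5.3, Zmat3 0.79 to 2.03 and Phlda3 0.3 to 2.01 TPM. The lowest of these rested on few fragments: Phlda3 had 18 to 110 expected counts per library and Bbc3 103 to 470, whereas Ccng1 had 6646 to 9382.

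Library totals ran from 73074797 to 86555638 expected counts. Kit and Ptprc, which encode the cKit receptor of the gate and the CD45 antigen, averaged 445 and 271 CPM (counts per 1e+06 counts, TMM-scaled) over the 12 libraries, against 0.0169 for the T-cell gene Cd3e. Itgam, a myeloid lineage gene, stood at 241 CPM. Counts of the Y-linked genes Uty, Kdm5d, Ddx3y and Eif2s3y added up to 4 to 8 per inv(3) library, against 19200 to 25380 per library of the other groups. In inv(3) against control, and in the double group against inv(3), genotype and the presence of Y-linked RNA therefore cannot be told apart. The same holds for the interaction of inv(3) and Sf3b1 K700E, which is given below and includes the inv(3) libraries. The double group, Sf3b1 K700E and control all had Y-linked RNA, but Xist, the RNA of the inactive X chromosome of female cells, was also raised in Sf3b1 K700E. It had 191, 210 and 77.1 CPM there, 24.0 to 39.9 in control, 23.2 to 40.5 in double libraries and 1794 to 2095 in inv(3).

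The members did not move as a block. Trp53inp1, Zmat3, Sesn1 and Bbc3 had their highest mean in the double group, and Pmaip1 in inv(3). Cdkn1a, Phlda3 and Ccng1 stood highest in Sf3b1 K700E alone and were lower again in the double group. Mdm2 and Bax differed little between groups. In these bulk samples fewer cells of a type and less RNA per cell cannot be told apart.

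**Figure D1:**
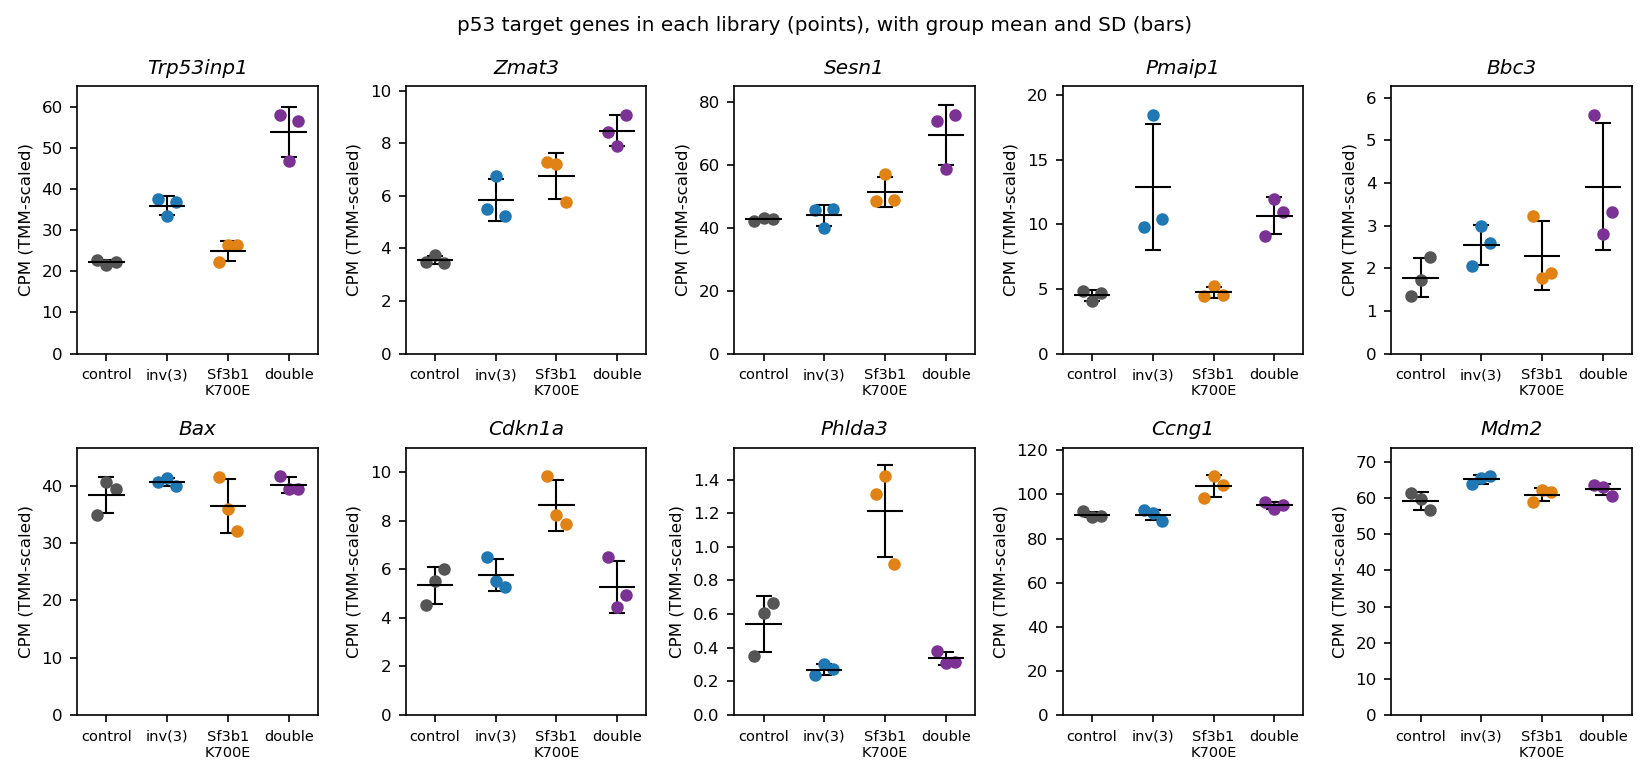
TMM-scaled CPM (vertical axis, from 0) of each gene in the 12 libraries, by genotype (horizontal axis). Points are libraries, and the horizontal lines with bars are group means and SD (n = 3). Trp53inp1 lies between 47 and 58.2 CPM in the double group and at 37.6 or less elsewhere, and Phlda3 lies at 0.900 to 1.42 in Sf3b1 K700E and at 0.665 or less elsewhere.

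Of the 10 members, 4 were higher and 1 lower in inv(3) than in control at an adjusted p under 0.05 (edgeR's quasi-likelihood test, adjusted by Benjamini-Hochberg over all tested genes). Of all tested genes, 38.7% were called in this comparison, 18.4% higher and 20.3% lower. In Sf3b1 K700E against control, 4 members were higher and 0 lower, where 8.84% of all genes were called, 3.94% higher and 4.9% lower. Double libraries against control had 5 higher and 0 lower, where 41.1% were called, 20.8% higher and 20.4% lower. Against inv(3) the double group had 3 members higher and 0 lower, where 22.6% were called, 13.4% higher and 9.13% lower. Against Sf3b1 K700E it had 4 higher and 3 lower, where 49.2% were called, 25.7% higher and 23.5% lower. In all, 5, 4, 5, 3 and 7 of the 10 were called in these 5 comparisons, in that order, against 38.7, 8.84, 41.1, 22.6 and 49.2% of all genes. The members' share was thus farthest from that of all genes in Sf3b1 K700E against control. The members were chosen with earlier results of these data known, so these shares are a description only. The count of 4 in Sf3b1 K700E against control rested on single libraries. It was 2 without control replicate 1, 1 without control replicate 2 and 1 without Sf3b1 K700E replicate 2, where the count over all genes also dropped, from 1216 to 600, 214 and 168. The count in inv(3) against control was 3 without control replicate 2 or without control replicate 3. The median log2 change of the 10 was 0.12 in inv(3), 0.23 in Sf3b1 K700E and 0.39 in double libraries, each against control, beside 0.0034, -0.0053 and 0.0024 over all tested genes. These 3 comparisons share the control libraries.

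**Figure D2:**
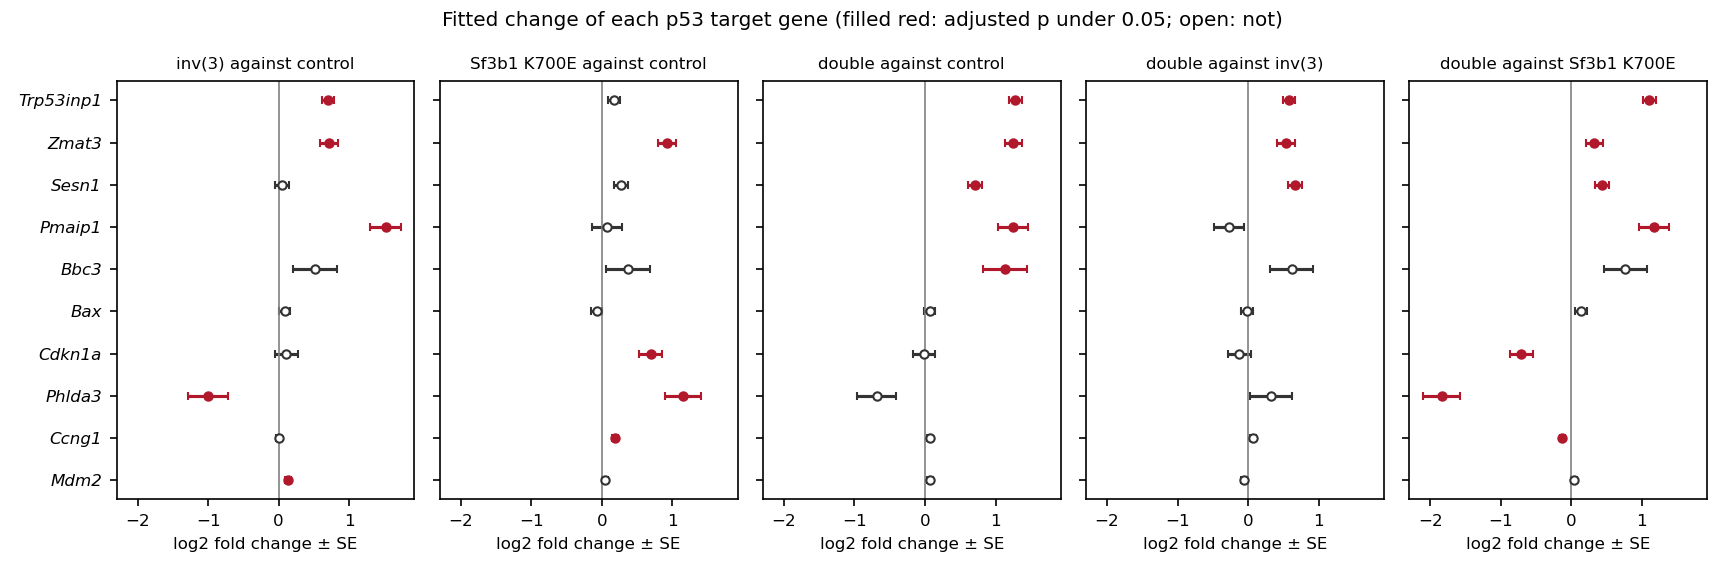
Fitted log2 fold change with its SE (horizontal axis) of each gene (vertical axis) in 5 comparisons, 1 per panel. Filled red points passed at an adjusted p under 0.05 and open points did not. Trp53inp1 and Zmat3 lie to the right of 0 in every panel, while Phlda3 is at -1.003 in the first panel and 1.16 in the second.

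Trp53inp1 encodes a p53-induced nuclear protein that takes part in autophagy and cell death. It had 22.9, 21.6 and 22.2 CPM in the control libraries and 37.6, 33.4 and 37.0 in inv(3). In Sf3b1 K700E it had 22.2, 26.5 and 26.4 CPM, and in the double group 58.2, 47.0 and 56.7. All inv(3) libraries were above all controls, all double libraries were above all others, and Sf3b1 K700E overlapped control. It was 1.62-fold higher in inv(3) than in control (log2 change 0.70 ± 0.09, SE, adjusted p = 0.000103, edgeR) and 2.43-fold higher in the double group (1.28 ± 0.09, adjusted p = 8.858e-07). It was also higher than in inv(3) in the double libraries, by 0.58 ± 0.09 (adjusted p = 0.00163), and than in Sf3b1 K700E, by 1.11 ± 0.09 (adjusted p = 2.319e-06). Sf3b1 K700E alone differed from control by 0.17 ± 0.09, which did not pass (adjusted p = 0.25).

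Zmat3, also known as Wig1, encodes a zinc-finger protein that binds RNA and acts on splicing and mRNA stability. The control libraries had 3.48, 3.74 and 3.45 CPM, and the inv(3) libraries 5.51, 6.77 and 5.25. Sf3b1 K700E had 7.30, 7.22 and 5.77 CPM, and the double group 8.44, 7.91 and 9.10. Every library with a mutant allele was above every control, and the double libraries were the highest. Zmat3 rose in inv(3) by 0.71 ± 0.13 log2 units (adjusted p = 0.000887, edgeR), in Sf3b1 K700E by 0.93 ± 0.13 (adjusted p = 0.0044) and in the double group by 1.25 ± 0.13 (adjusted p = 1.239e-05), each against control. With the rise in Sf3b1 K700E, Zmat3 stood at rank 30 by p among the 13755 genes of that comparison. The double group was higher than inv(3) by 0.54 ± 0.12 (adjusted p = 0.0101). Its difference from Sf3b1 K700E of 0.33 ± 0.12 passed narrowly (adjusted p = 0.0426). That last call held in 8 of 21 alternatives, with adjusted p from 0.0222 to 0.207. It ended with RLE scaling (0.31), with no low-count filter (0.33), with a minimum mean of 5 CPM (0.29), with only the libraries compared (0.30), with abundant genes left out before scaling (0.31), with the replicate number as a block (0.34, adjusted p = 0.0503) and without any 1 of control replicates 1, 2 and 3 (0.32, 0.32 and 0.31), Sf3b1 K700E replicates 2 and 3 (0.36 and 0.21), or double replicates 1 and 3 (0.33 and 0.27).

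Sesn1 encodes sestrin 1, a stress protein that restrains mTORC1 signalling and oxidative damage. In control it had 42.1, 43.1 and 42.7 CPM, and in inv(3) 45.7, 40.1 and 46.0. Sf3b1 K700E libraries had 48.4, 57.0 and 48.7 CPM, and double libraries 74.0, 58.7 and 76.0. The double libraries were above all others, and the inv(3) libraries overlapped control. Sesn1 was 1.63-fold higher in double libraries than in control (0.71 ± 0.10, adjusted p = 0.000148, edgeR), and higher than in inv(3) by 0.66 ± 0.10 (adjusted p = 0.00145) and than in Sf3b1 K700E by 0.44 ± 0.10 (adjusted p = 0.00287). In Sf3b1 K700E all libraries lay above all controls, but the difference of 0.27 ± 0.10 did not pass (adjusted p = 0.11). It passed narrowly when only these 2 groups were fitted (0.27, adjusted p = 0.0465), with DESeq2 (0.28, adjusted p = 0.0488) and without double replicate 2 (0.27, adjusted p = 0.0394). In inv(3) its difference from control was 0.04 ± 0.10 (adjusted p = 0.76).

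The 3 apoptosis genes of the set differed from each other. Pmaip1 encodes NOXA, a BH3-only protein that neutralises MCL-1, Bbc3 encodes PUMA, a BH3-only protein that binds all the BCL-2 survival proteins, and Bax encodes the effector that opens the mitochondrial outer membrane. Pmaip1 had 4.83, 4.03 and 4.67 CPM in control and 4.46, 5.23 and 4.53 in Sf3b1 K700E. It had 9.77, 18.5 and 10.4 CPM in inv(3) and 9.128, 11.94 and 10.997 in the double group. All 6 libraries with inv(3) thus lay above all 6 without it, and inv(3) replicate 2 stood above the rest. The rise was 2.86-fold in inv(3) against control (1.52 ± 0.22, adjusted p = 0.00024, edgeR), 2.37-fold in the double group against control (1.24 ± 0.22, adjusted p = 0.000792) and 2.25-fold in the double group against Sf3b1 K700E (1.17 ± 0.21, adjusted p = 0.000893). The last 2 comparisons have Y-linked RNA in both groups. The double group differed from inv(3) by -0.27 ± 0.21 (adjusted p = 0.38), and Sf3b1 K700E from control by 0.07 ± 0.22 (adjusted p = 0.87).

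Bbc3 had 1.35, 1.73 and 2.25 CPM in control and 2.06, 3.00 and 2.59 in inv(3). Sf3b1 K700E libraries had 3.23, 1.78 and 1.88 CPM, and double libraries 5.60, 2.81 and 3.33. The double libraries lay above all controls and overlapped both single-allele groups. Bbc3 was 2.20-fold higher in double libraries than in control (1.14 ± 0.31, adjusted p = 0.0122, edgeR). That call ended without control replicate 1 (0.97, adjusted p = 0.0511) and without double replicate 1 (0.78, adjusted p = 0.0603). The differences of 0.52 ± 0.31 in inv(3) and 0.37 ± 0.31 in Sf3b1 K700E did not pass (adjusted p = 0.21 and 0.49), nor did 0.77 ± 0.31 between the double group and Sf3b1 K700E (adjusted p = 0.0558). The last one did pass with DESeq2 (0.76, adjusted p = 0.0364), with limma-voom (0.77, adjusted p = 0.0462), without Sf3b1 K700E replicate 1 (1.09, adjusted p = 0.0135) and without double replicate 2 (0.96, adjusted p = 0.0304). Bax ranged from 32.1 to 41.7 CPM over the 12 libraries and its groups overlapped in every comparison. Its 5 differences lay between -0.07 and 0.14 log2 units, each with an SE of 0.08, and none passed (adjusted p from 0.19 to 0.90). Without Sf3b1 K700E replicate 1 the double group was higher than Sf3b1 K700E in Bax by 0.24 (adjusted p = 0.0158).

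Cdkn1a encodes p21, the inhibitor of cyclin-dependent kinases through which p53 arrests the cell cycle. The control libraries had 4.52, 5.51 and 6.00 CPM, and the inv(3) libraries 6.52, 5.50 and 5.27. Sf3b1 K700E had 9.83, 8.24 and 7.85 CPM, and the double group 6.49, 4.43 and 4.92. The 3 Sf3b1 K700E libraries stood above the other 9, which overlapped. Cdkn1a was 1.62-fold higher in Sf3b1 K700E than in control (0.69 ± 0.16, adjusted p = 0.0233, edgeR) and 1.63-fold lower in the double group than in Sf3b1 K700E (-0.71 ± 0.16, adjusted p = 0.00323). The rise against control lost its call without control replicates 1 or 2 (0.59 and 0.71, adjusted p = 0.0789 and 0.0854) and without Sf3b1 K700E replicates 1 or 2 (0.59 and 0.74, adjusted p = 0.0629 and 0.0776). The double group differed from control by -0.02 ± 0.16 (adjusted p = 0.95) and from inv(3) by -0.13 ± 0.16 (adjusted p = 0.62), and inv(3) from control by 0.11 ± 0.16 (adjusted p = 0.62). The interaction of the 2 alleles, which tests whether Sf3b1 K700E had another effect with inv(3) than without it, was -0.82 ± 0.23 for Cdkn1a. It did not pass by edgeR (adjusted p = 0.11) and did by DESeq2 (-0.84, adjusted p = 0.0192). Over all its alternatives the adjusted p ran from 0.0192 to 0.27. The interaction includes the inv(3) libraries, so here too genotype and the presence of Y-linked RNA cannot be told apart.

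Phlda3 encodes a pleckstrin-homology protein that holds back AKT signalling by competing for membrane lipids. It had 0.354, 0.605 and 0.665 CPM in control and 0.236, 0.303 and 0.271 in inv(3). Sf3b1 K700E libraries had 1.32, 1.42 and 0.900 CPM, and double libraries 0.381, 0.312 and 0.317. Sf3b1 K700E lay above all other libraries and inv(3) below all controls. It was 2.23-fold higher in Sf3b1 K700E than in control (1.16 ± 0.26, adjusted p = 0.0197, edgeR), 2.004-fold lower in inv(3) than in control (-1.003 ± 0.28, adjusted p = 0.0155) and 3.58-fold lower in the double group than in Sf3b1 K700E (-1.84 ± 0.27, adjusted p = 0.000158). The rise in Sf3b1 K700E lost its call without control replicates 1 or 2 (0.93 and 1.24, adjusted p = 0.0592 and 0.0725) and without Sf3b1 K700E replicate 2 (1.04, adjusted p = 0.0985). The fall in inv(3) lost it without control replicates 2 or 3 (-0.92 and -0.81, adjusted p = 0.0528 and 0.0696). The double group differed from control by -0.68 ± 0.28 (adjusted p = 0.0684), and without control replicate 1 this passed (-0.91, adjusted p = 0.0185). Between the double group and inv(3) the difference was 0.32 ± 0.30 (adjusted p = 0.47).

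Ccng1 and Mdm2 act back on p53. Mdm2 encodes the ubiquitin ligase that sends p53 to the proteasome, and Ccng1 encodes cyclin G1, which recruits a phosphatase to MDM2. Ccng1 had 92.4, 89.9 and 90.3 CPM in control and 98.4, 108 and 104 in Sf3b1 K700E, without overlap. In inv(3) it ranged from 88.2 to 92.7 CPM and in the double group from 93.5 to 96.4. The rise in Sf3b1 K700E was 1.14-fold (0.19 ± 0.04, adjusted p = 0.0181, edgeR), and the double group was below Sf3b1 K700E by a log2 change of -0.12 ± 0.04 (adjusted p = 0.0245). The rise lost its call without control replicates 2 or 3 (0.18 and 0.21, adjusted p = 0.0868 and 0.0504) and without Sf3b1 K700E replicate 2 (0.18, adjusted p = 0.0805). The difference between the double group and Sf3b1 K700E lost it with the replicate number as a block (-0.12, adjusted p = 0.0501), without Sf3b1 K700E replicate 2 (-0.11, adjusted p = 0.0758) and without double replicates 2 or 3 (-0.12 and -0.13, adjusted p = 0.0658 and 0.054).

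Mdm2 differed little between groups. It had 61.5, 59.7 and 56.6 CPM in control and 63.8, 65.6 and 66.1 in inv(3), without overlap, a 1.10-fold rise (0.14 ± 0.04, adjusted p = 0.022, edgeR). That call ended without control replicates 2 or 3 (0.14 and 0.12, adjusted p = 0.0551 and 0.0786) and without inv(3) replicates 2 or 3 (0.13 for each, adjusted p = 0.0621 and 0.0682). In Sf3b1 K700E it ranged from 58.8 to 62.4 CPM and in the double group from 60.7 to 63.6. No other comparison passed for Mdm2, with adjusted p from 0.17 to 0.57.

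The number of members whose groups did not overlap was counted as well. In inv(3) against control, 4 were wholly higher and 1 wholly lower, where 51.8% of all genes did not overlap, 24.9% higher and 26.9% lower. In Sf3b1 K700E against control, 5 were wholly higher and 0 wholly lower, where 33.5% of all genes did not overlap, 17.7% higher and 15.8% lower. In the double group against control these counts were 6 and 0, where the share was 54.8%, 27.3% higher and 27.5% lower. In the double group against inv(3), 5 were wholly higher and 1 wholly lower, where the share was 39.4%, 21.9% higher and 17.6% lower. Against Sf3b1 K700E they were 4 and 3, where the share was 57.7%, 29.6% higher and 28% lower.

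None of the 10 members passed for the interaction by edgeR, where 0.836% of all genes were called, and 4 had an unadjusted p under 0.05. Beside Cdkn1a these were Trp53inp1 (0.41 ± 0.13, adjusted p = 0.14), Sesn1 (0.39 ± 0.14, adjusted p = 0.18) and Zmat3 (-0.39 ± 0.17, adjusted p = 0.30). The share of 0.836% is for the adjusted limit, and many more genes had an unadjusted p this low. Zmat3, with an unadjusted p of 0.0471 by edgeR, stood at rank 2184 among the 13755 genes. DESeq2 called 1 member. Without double replicate 2, Trp53inp1 (0.50, adjusted p = 0.0411) and Sesn1 (0.50, adjusted p = 0.0389) passed by edgeR. The estimates for Trp53inp1 and Sesn1 were above 0, and those for Zmat3 and Cdkn1a below 0. An estimate above 0 means more rise in the double group than the sum of the single-group changes on the log2 scale. The Y-linked genes Uty, Kdm5d, Ddx3y and Eif2s3y were called higher for the interaction by edgeR, and Xist lower. An effect of the alleles together therefore cannot be told apart from the lack of Y-linked RNA in inv(3), for the members or for all genes.

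Markers of other cells moved with the Sf3b1 K700E libraries. Of 15 macrophage markers 12 were higher and 0 lower in Sf3b1 K700E than in control, with a median log2 change of 2.05, and 8 to 12 were higher over 21 alternatives. Of all genes, 3.94% were higher and 4.9% lower in this comparison. Their sum was 602 to 819 CPM in Sf3b1 K700E, 465 to 568 in control, 148 to 200 in inv(3) and 118 to 147 in double libraries, and none of the 15 was at 0 in any group. Vcam1 and Slc40a1, which were not called (-0.14 ± 0.21 and 0.15 ± 0.11, adjusted p = 0.73 and 0.40 by edgeR), make up most of that sum. Without them, a choice made after seeing the values, the other 13 summed to 274, 353 and 172 CPM in Sf3b1 K700E replicates 1, 2 and 3, to 58.4 to 90.2 in control, 42.7 to 58.2 in inv(3) and 32.5 to 49.5 in double libraries. The complement gene C1qa, chosen after its values were seen, had 30.2, 33.2 and 16.0 CPM in the Sf3b1 K700E libraries and 3.39, 5.44 and 7.36 in control. Xist was 4.84-fold higher in Sf3b1 K700E than in control (adjusted p = 0.00701, edgeR) and, like C1qa, lowest of that group in replicate 3.

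Of 9 tested B-lymphoid markers 5 were higher and 0 lower in Sf3b1 K700E than in control, with a median log2 change of 1.60 and 0 to 5 higher over 21 alternatives (0 with a minimum mean of 5 CPM, which left 1 marker, and 2 without control replicate 2). Ebf1, a B-cell transcription factor, had means of 0.303 and 0.0211 CPM in Sf3b1 K700E and control. Of 15 erythroid markers 3 were higher and 0 lower (2 to 6 higher over 21 alternatives), among them the heme synthesis gene Alas2, 9.48-fold higher (adjusted p = 0.00495, edgeR). Replicate 3 of Sf3b1 K700E, the library with the least C1qa and Xist of that group, was also its lowest in Cdkn1a, Phlda3 and Zmat3, but not in Ccng1. Replicate 2 had the most C1qa and Xist of that group. It had less Cdkn1a than replicate 1 (8.24 against 9.83 CPM) and no more Zmat3 (7.22 against 7.30). Its Phlda3 (1.42 against 1.32 CPM) and Ccng1 (108 against 98.4) were higher than those of replicate 1. Zmat3 had 7.91 to 9.10 CPM in double libraries, where the sum of the 15 macrophage markers was 118 to 147 CPM. In the double group against Sf3b1 K700E all 15 macrophage markers were lower, with a median log2 change of -3.05. Of the 9 B-lymphoid markers 8 were lower and 1 higher there, with a median of -3.02. Of all genes, 25.7% were higher and 23.5% lower in this comparison. The part of other cells in the rise of Cdkn1a, Phlda3, Ccng1 and Zmat3 in Sf3b1 K700E was not tested. Nor was their part in the lower Cdkn1a, Phlda3 and Ccng1 of the double group.

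**Figure D3:**
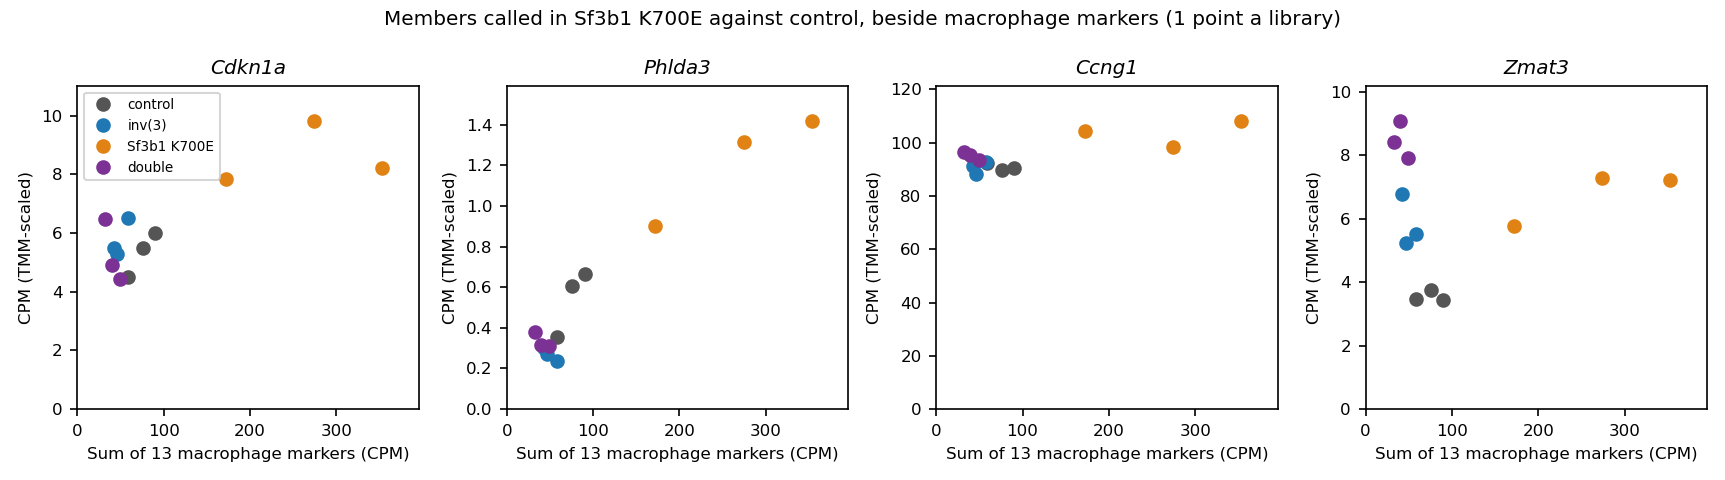
TMM-scaled CPM (vertical axis, from 0) of the 4 genes called in Sf3b1 K700E against control, beside the summed CPM of 13 macrophage markers, all but Vcam1 and Slc40a1 (horizontal axis). Vcam1 and Slc40a1 were left out after the values were seen. With all 15 markers the sums were 602 to 819 CPM in Sf3b1 K700E and 465 to 568 in control. Each point is 1 library, coloured by genotype. Sf3b1 K700E libraries lie at 172 to 353 CPM of the markers and all others at 90.2 or less, and in the Zmat3 panel the double libraries, at 32.5 to 49.5, lie highest.

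In groups with inv(3), markers of other lineages moved beside the members as well. Mature neutrophil markers summed to 5204 to 6271 CPM in inv(3) and 3209 to 4487 in the double group, against 1778 to 2482 in control and 1486 to 2548 in Sf3b1 K700E. Of 12 such markers, 9 were higher and 1 lower in inv(3) than in control, where 18.4% of all genes were higher and 20.3% lower. Mast cell, basophil and eosinophil markers summed to 466 to 508 CPM in inv(3) and 388 to 460 in the double group, against 1139 to 1254 in control. Megakaryocyte and platelet markers summed to 45.5 to 72.3 CPM in inv(3) and 49.6 to 88.1 in the double group, against 225 to 272 in control. Erythroid markers summed to 339 to 489 CPM in inv(3) and 400.2 to 460.7 in the double group, against 899 to 977 in control, and stem cell and early progenitor markers to 612 to 734 and 835 to 937, against 1025 to 1097. In none of these 5 lists was a marker at 0 in all libraries of a group. Cell numbers were not measured. Whether cell make-up changed, and its part in the rise of Pmaip1, Trp53inp1 and Zmat3, was not tested.

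The transcript of p53 itself, Trp53, was not called in any comparison. Control libraries had 201 to 223 CPM, inv(3) libraries 209 to 225, Sf3b1 K700E libraries 211 to 237 and double libraries 221 to 233, so all groups overlapped. Its 5 differences lay between 0.02 and 0.08 log2 units, each with an SE of 0.05, and none passed (adjusted p from 0.28 to 0.78, edgeR). The protein is governed mainly after transcription, and it was not measured here. Libraries were unstranded, so reads from Wrap53, which overlaps Trp53 on the other strand, cannot be told apart where the genes overlap. Mdm4, the MDM2 relative that masks the activation domain of p53, was 0.22 ± 0.06 log2 units higher in double libraries than in control (adjusted p = 0.0101) and 0.24 ± 0.06 higher than in Sf3b1 K700E (adjusted p = 0.00602).

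Other regulators of p53 were read from a list of 29 genes, of which 26 were tested. In the double group 7 were higher and 1 lower than in control, and 8 higher and 1 lower than in inv(3). The shares of all genes were 20.8% higher and 20.4% lower against control, and 13.4% and 9.13% against inv(3). Trp53bp1, a chromatin protein that marks DNA breaks, was higher by 0.40 ± 0.05 (adjusted p = 5.206e-05, edgeR) and 0.34 ± 0.05 (adjusted p = 0.00117) in these comparisons. Atm, the kinase that signals breaks to p53, was 0.28 ± 0.05 higher in double libraries than in inv(3) (adjusted p = 0.00235), and Ppp1r13b, an ASPP protein that binds p53, by 0.65 ± 0.11 (adjusted p = 0.00312). In inv(3) 3 were higher and 4 lower than in control, where 18.4% of all genes were higher and 20.3% lower. Among them were the p53 kinase Hipk2 (0.66 ± 0.12, adjusted p = 0.00104) and the ubiquitin ligase Rchy1 (-0.43 ± 0.07, adjusted p = 0.000404). In Sf3b1 K700E 1 of 26 passed, where 8.84% of all genes did: the checkpoint kinase Chek1 was higher by 0.32 ± 0.05 (adjusted p = 0.00642).

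A list of 38 other p53 target genes, of which 37 were tested, moved in both directions. In inv(3) 9 were higher and 6 lower than in control, with a median of 0.08, where 18.4% of all genes were higher and 20.3% lower. Xpc and Ddb2, which recognise damaged DNA for nucleotide excision repair, were higher by 0.56 ± 0.06 (adjusted p = 2.404e-05, edgeR) and 0.46 ± 0.07 (adjusted p = 0.000229), and the apoptosis-related membrane gene Perp by 2.39 ± 0.31 (adjusted p = 0.00012). In the double group 12 were higher and 7 lower than in control, with a median of 0.08, beside 20.8% and 20.4% of all genes. Ddb2 was higher by 0.60 ± 0.07 (adjusted p = 2.375e-05), while Tigar, which lowers glycolytic flux, and the thiamine carrier Slc19a2 were lower, with log2 changes of -0.84 ± 0.07 and -0.55 ± 0.08 (adjusted p = 3.653e-06 and 0.000154).

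In Sf3b1 K700E against control 1 of the 37 was higher and 4 were lower, with a median of -0.02. The one that was higher was the death receptor gene Tnfrsf10b (0.47 ± 0.10, adjusted p = 0.015, edgeR). The autophagy gene Dram1 and the lysosomal gene Sidt2 were lower, with log2 changes of -0.57 ± 0.10 (adjusted p = 0.0105) and -0.24 ± 0.06 (adjusted p = 0.0224). Over 21 alternatives 0 to 2 were higher and 0 to 6 lower, with 0 lower without control replicate 2. Over all genes 3.94% were higher and 4.9% lower in this comparison. In the double group against Sf3b1 K700E 13 were higher and 7 lower, where 25.7% of all genes were higher and 23.5% lower. Ddb2 stood at 0.82 ± 0.07 (adjusted p = 2.151e-06) and Xpc at 0.58 ± 0.06 (adjusted p = 1.147e-05). Against inv(3) the double group had 6 higher and 8 lower (1 to 8 and 3 to 8 over 21 alternatives), beside 13.4% and 9.13% of all genes. Among them were Ak1 (0.78 ± 0.17, adjusted p = 0.0087) and Ptprv (-0.42 ± 0.08, adjusted p = 0.003755).

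**Figure D4:**
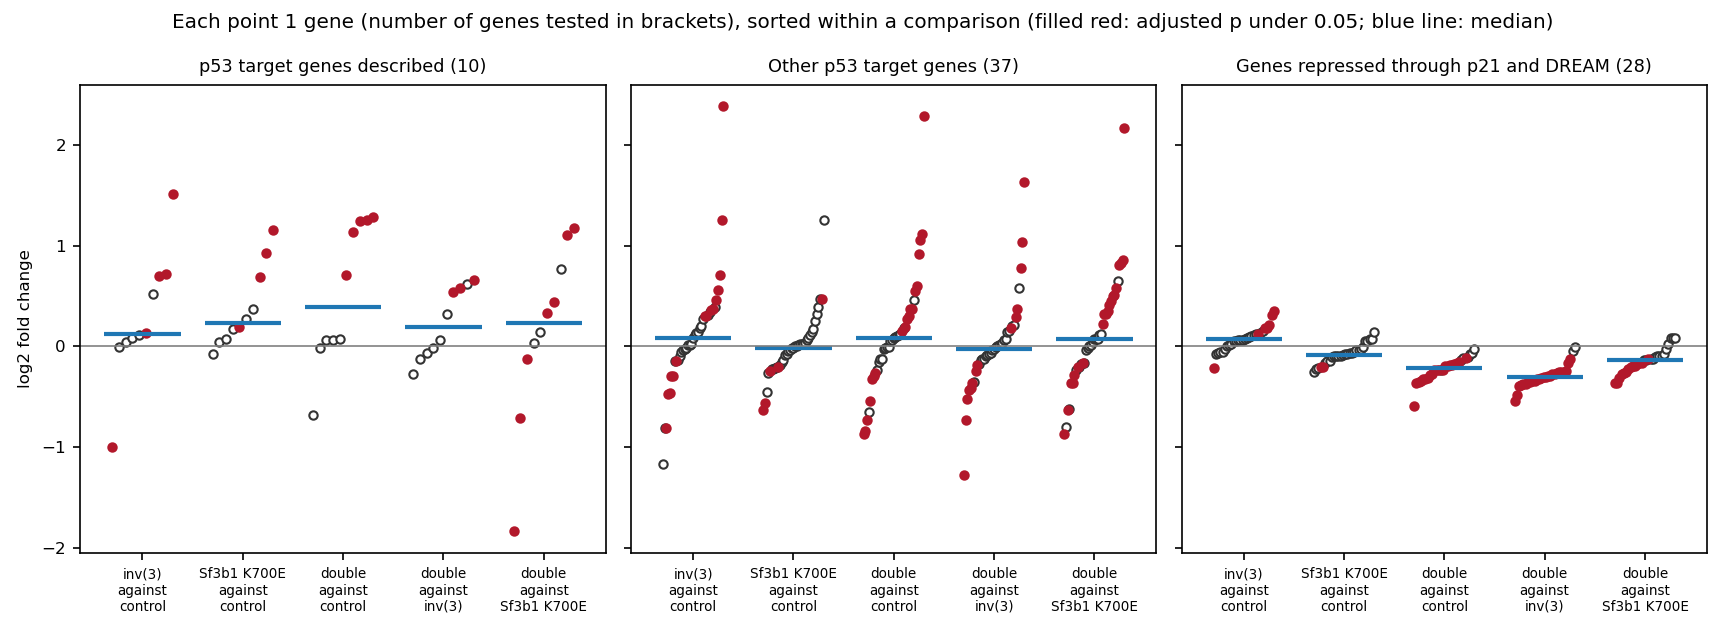
Log2 fold change (vertical axis) of every tested gene of 3 lists in 5 comparisons (horizontal axis). Each point is 1 gene, filled red at an adjusted p under 0.05, and the blue line is the median. The p53 targets spread to both sides of 0, while in the double group against inv(3) all 28 genes repressed through p21 and DREAM lie below 0, with a median of -0.31.

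Genes that p53 is known to lower through p21 and the DREAM repressor complex, which carry the cell through replication and mitosis, were lowest in the double group. Of 28 such genes 0 were higher and 21 lower in the double group than in control, with a median of -0.21, and 0 higher and 26 lower than in inv(3), with a median of -0.31. Mybl2, a cell-cycle transcription factor, had a log2 change of -0.59 ± 0.07 against control (adjusted p = 3.337e-05, edgeR). The survivin gene Birc5 had -0.32 ± 0.04 against control (adjusted p = 8.061e-05) and -0.38 ± 0.04 against inv(3) (adjusted p = 0.000435). Cdkn1a did not pass in either of these comparisons, where 20.4% and 9.13% of all genes were lower. Against Sf3b1 K700E, where Cdkn1a was lower in the double group, 0 of the 28 were higher and 14 lower, with a median of -0.14. Across 21 alternatives 0 to 1 were higher and 10 to 20 lower there, and 23.5% of all genes were lower. In Sf3b1 K700E, where Cdkn1a was higher than in control, 2 of the 28 were lower and 0 higher, with a median of -0.08 (0 to 4 lower over 21 alternatives, 0 without control replicate 2). In inv(3) 6 were higher and 1 lower, with 3 to 9 higher over the alternatives. The shares of all genes were 3.94% higher and 4.9% lower in Sf3b1 K700E, and 18.4% and 20.3% in inv(3), each against control. Over 21 alternatives, the number lower ran from 15 to 23 in the double group against control and from 23 to 26 against inv(3), with 0 higher in each. For the interaction 3 of the 28 were lower, with 0 to 13 lower over 20 alternatives and 0 without control replicate 1. Where inv(3) libraries are compared, genotype and the presence of Y-linked RNA cannot be told apart. The cause of these differences, and any part of Cdkn1a or of cell make-up in them, was not tested.

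The relatives of the members were read for comparison. Of 15 tested paralogs, 0 passed in Sf3b1 K700E against control by edgeR, while in the double group against control 7 were higher and 0 lower. The share of all genes that passed was 8.84% in the first comparison, and 20.8% were higher and 20.4% lower in the second. Cdkn1c, which encodes the p21 relative p57, rose in inv(3) by 4.25 ± 0.40 log2 units (adjusted p = 1.505e-05) and in the double group by 3.77 ± 0.40 (adjusted p = 2.201e-05) from a mean of 0.435 CPM in control. The sestrin Sesn2 was 0.92 ± 0.15 higher in double libraries than in control (adjusted p = 0.000482), and Sesn3 0.92 ± 0.15 higher than in inv(3) (adjusted p = 0.00223). Phlda2 was 2.50 ± 0.32 higher in double libraries than in control (adjusted p = 8.765e-05). It was thus higher where Phlda3 was not.

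Within the apoptosis machinery, 25 genes of the BCL-2 family and of caspase activation were tested beside the 3 members. In inv(3) 8 were higher and 6 lower than in control, and in the double group 7 and 5. The shares of all genes were 18.4% and 20.3% in inv(3) and 20.8% and 20.4% in the double group. Bmf, another BH3-only gene, rose like Pmaip1 in inv(3) (1.22 ± 0.11, adjusted p = 1.285e-05, edgeR) and in the double group (1.02 ± 0.11, adjusted p = 3.179e-05). The survival gene Bcl2 was lower in inv(3), with a log2 change of -0.67 ± 0.09 (adjusted p = 0.000215). In Sf3b1 K700E 0 were higher and 2 lower, Bcl2l2 and Bid, with log2 changes of -0.18 ± 0.04 and -0.18 ± 0.05 (adjusted p = 0.0217 and 0.0319). Of 22 tested CDK inhibitors, cyclins and RB-family genes, 7 were higher and 4 lower in inv(3), 1 and 1 in Sf3b1 K700E, with 4 and 4 for the double libraries, each against control. In these 3 comparisons 38.7, 8.84 and 41.1% of all genes were called, in that order. The CDK4 and CDK6 inhibitor Cdkn2c was higher in inv(3) by 0.85 ± 0.10 (adjusted p = 4.588e-05) and lower in Sf3b1 K700E, with a log2 change of -0.56 ± 0.10 (adjusted p = 0.00787).

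Because a splicing factor is mutated in 2 groups, isoform use was read from the isoform-weighted effective length of a gene. This is the mean effective length of its transcripts, weighted by their estimated abundance. It also differed between libraries for Bax, which has 1 listed transcript, with 706 and 692 bases in inv(3) replicates 1 and 2. A shift is therefore not isoform use alone. Of the 10 members, Trp53inp1, Sesn1, Cdkn1a and Mdm2 have more than 1 listed transcript and were tested. None passed in any of 6 contrasts by limma (adjusted p of 0.11 or more), where 0.263% of 3422 genes were called in inv(3), 0.0292% in Sf3b1 K700E and 0.468% in double libraries, each against control, 0.0292% in the double group against inv(3), 0.526% in it against Sf3b1 K700E, and 0% for the interaction. Cdkn1a, Mdm2 and Trp53inp1 each had 0 contrasts with an unadjusted p under 0.05. Sesn1 had the largest shift, with 2562 ± 18.8 bases in control (SD, n = 3) and 2521 ± 9.22 in the double group, and 2548 ± 5.27 and 2543 ± 5.08 in inv(3) and Sf3b1 K700E. Between the double group and control this was a log2 change of -0.023 ± 0.0048 (unadjusted p = 0.00089 by limma, adjusted p = 0.11), and without control replicate 3 it passed (smallest adjusted p = 0.0101).

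For each member that passed in a pairwise comparison, the non-member gene with the most similar profile over the 12 libraries was found among 9588 genes with a mean of at least 5 CPM. Likeness was the root mean square difference of centred log2 CPM, so smaller is closer. The nearest to Trp53inp1 was Itih5 (0.0964, against a median of 0.513 over the 9588), the nearest to Zmat3 was Slfn5 (0.114 against 0.493), and the nearest to Sesn1 was Gabarapl1 (0.0569 against 0.332). Pmaip1 was nearest to Mical2 (0.183 against 0.694) and Bbc3 to Nckap5l (0.193 against 0.536). Cdkn1a was nearest to Lgals3 (0.19 against 0.378), Phlda3 to Plxna1 (0.153 against 0.852), Ccng1 to Tardbp (0.0318 against 0.161) and Mdm2 to Lin52 (0.0263 against 0.141). Mdm2 and Ccng1 vary little, so many genes lie close to them. Among the members, the closest pair was Mdm2 and Ccng1 (0.108). All these values share the same libraries and are descriptions.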

How the data were processed

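Lineage-negative, cKit-positive marrow cells of 12 libraries were sequenced after poly(A) selection, with a TruSeq kit that keeps no strand, per the labels' protocols. Columns named as RSEM names them, per the file headers, hold expected counts (estimated fragments per gene, not normalized), TPM, and the authors' length and effective length in bases. Base calling with bcl2fastq and the mouse build mm10 are credited to the submitters' processing notes. The aligner, its version and its filters were not given in the sources used here. The authors' TPM values were used for levels only.

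Expected counts were rounded, filtered by group with filterByExpr, TMM-scaled and fitted in 1 model over the 4 groups with edgeR 4.0.16 in R 4.3.3 (quasi-likelihood, robust), with SE from the F statistic. Two-sided p-values were adjusted by the Benjamini-Hochberg method over all 13755 genes, with a limit of 0.05. Effective length was tested with limma 3.58.1 on log2 values over genes with at least 50 counts in every library. DESeq2 1.42.0 was an alternative. The members and lists were chosen with earlier results of these data known. All members are named, and at most 3 genes with the smallest p among those that passed are named per other list and comparison. The code was tested on simulated data. Promoter windows and positions come from RefSeq, GRCm38.p6. The gene lists were also read under every alternative, a choice made after seeing the data. Depth was 73074797 to 86555638 expected counts per library. The marker Ly6g was not analysed here. 1 further marker is not reported here, and its list is given without it. Between libraries of a group, counts differed by more than sampling noise in every pair.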

Additional observations from a re-analysis of the deposited data

How the results depend on the processing

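Of 1238 values for a single member under an alternative, 1191 kept their side of the threshold, 35 lost a call and 12 gained one. No call changed direction, and 22 uncalled values changed sign. The count of members called stayed within 1.5 times its value under the scaling, filter, test, length-offset and group-choice alternatives, except that the interaction had 1 with DESeq2 in place of 0. With 1 library left out, the count ran from 3 to 5 in inv(3) against control, from 1 to 5 in Sf3b1 K700E against control, and from 0 to 2 for the interaction, and for length from 0 to 1. The cause was not tested, and fewer samples were fitted. Replicate numbers do not mark a shared animal or batch in the labels: 3 of 18 same-numbered pairs of libraries had deviations that correlated above 0.1, and 2 of 12 libraries correlated best with their own number. With the replicate number as a block, the members called stood at 5, 4, 5, 3 and 5 in the 5 pairwise comparisons and at 0 for the interaction.
Over all genes, the count called in Sf3b1 K700E against control was 1216, and it was 1881 with DESeq2, 654 with the replicate block and 168 to 1649 with 1 library left out, the lowest without Sf3b1 K700E replicate 2. For the double group against inv(3) it was 3103, and 1954 with those libraries alone and 1566 to 3342 with 1 library left out. For the interaction it was 115, and 622 with DESeq2, 60 with the replicate block and 32 to 323 with 1 library left out. Phlda3, with 18 to 110 expected counts per library, and Bbc3, with 103 to 470, rested on few fragments.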
